A study of Mus musculus with 17 samples.

Results

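The genes described here start between 30 and 60 Mb on mouse chromosome 4, in the coordinates of the assembly C57BL_6NJ_v1 that the deposited table uses. A gene belongs to the region when its smallest start lies in that window, which holds 490 of the 41096 genes in the table. The window was chosen by how its genes differed between bsg and WT hearts in these same libraries. Every value for bsg against WT is therefore a description. Calls and counts past a threshold are given for this contrast, with no p-value of a single gene, and support nothing. Of the 490 genes, 175 had enough counts to be tested, among 15013 tested genes in all. Another 107 had counts too low to be tested, with a median of 8 and a maximum of 224 fragments over all libraries. Bsg and WT libraries failed to overlap in 0 of these 107. At such counts a lack of overlap could hardly arise for most of them, so nothing is read from this 0. The remaining genes had 0 counts in all libraries.

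The libraries hold total RNA from hearts of mice aged 4 months, of the background strain C57BL/6. There were 7 wild-type (WT) hearts, from 4 females and 3 males, and 10 hearts of the genotype bsg, from 5 females and 5 males. The labels describe the bsg allele no further, and the series title speaks of a genetic cardiomyopathy, a disease of the heart muscle. The design text calls the samples biological replicates and states fewer per group than the 5 found in each bsg group.

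Mouse chromosomes have their centromere at one end, and low coordinates lie near it. Genes that lie close together are inherited together unless a crossover separates them, yet each is usually transcribed from a promoter of its own, on either strand. The heart contains muscle cells, fibroblasts, endothelial cells and immune cells, and RNA of a whole heart mixes them. In such bulk samples, fewer cells of a type and less RNA per cell cannot be told apart. The table lists gene IDs of this strain's assembly without names. Of its IDs, 0 matched the name tables used here, so functions of the genes and markers of heart cells could not be looked up. At most 2 genes each way are given by ID, and all others by their start in Mb.

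Each library held 13886399 to 17554850 fragments assigned to genes. Levels are in CPM, each gene's fragments per megafragment of its library after TMM scaling, and group values are mean ± SD over libraries. The tested genes of the region summed to 6788 to 7369 CPM per library. All bsg males (7203 to 7369) lay narrowly above all WT males (6967 to 7199), while the females of each genotype overlapped. The gap in males was far smaller than the SD of bsg males (77.4) or of WT males (122). The part of this sum in the results was not tested. WT female 2, bsg female 2 and WT male 2 lay apart on the first principal component of all genes, at 35.1, 54.6 and 18.6 against -20.6 to 8.75 in the other 14 libraries. Results that rest on these libraries are given with and without them.

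Along the region, genes called between bsg and WT lay below 50 Mb, most of them at 40 to 50 Mb, and went in both directions. The call rule was an adjusted p under 0.05 in edgeR's quasi-likelihood test over all genes, with the difference averaged over the sexes. In the region 27 of 175 genes (15.4%) were called, beside 4.26% of all tested genes. Of these, 11 were higher in bsg, beside 2.14% of all tested genes called higher, and 16 were lower, beside 2.12%. The contrast that chose the region gave these counts, and nothing is read from them. Without WT female 2 and bsg female 2, 21 genes were called, beside 4.23% of all genes, and 20 were among the 27. Without WT male 2 as well, 24 were called, beside 3.55%, and 21 were among the 27. Among single libraries left out, the count was lowest without WT male 3, at 13 genes, beside 2.06%. The count over all genes fell with it, from 639 to 318. Some titles of a group share a number of unstated meaning. With the libraries that share one summed, 9 genes were called, beside 1.53%.

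The called genes started between 31.67 and 49.80 Mb. Of 24 tested genes at 30 to 35 Mb, 2 were called, both higher in bsg. At 35 to 40 Mb 1 of 8 tested genes was called, lower in bsg. At 40 to 45 Mb 10 of 66 were called, 4 higher and 6 lower. At 45 to 50 Mb 14 of 42 (33.3%) were called, 5 higher and 9 lower. Beyond 50 Mb, 0 of 35 tested genes were called by edgeR, and 7 of these 35 had an unadjusted p under 0.05, beside 2751 of all 15013 tested genes, a like share. DESeq2 and limma-voom also called 0 of the genes beyond 50 Mb. Leaving out single libraries gave 1 called gene there in each of 4 cases, without WT female 3, WT female 4, bsg male 3 or bsg female 5.

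**Figure D1:**
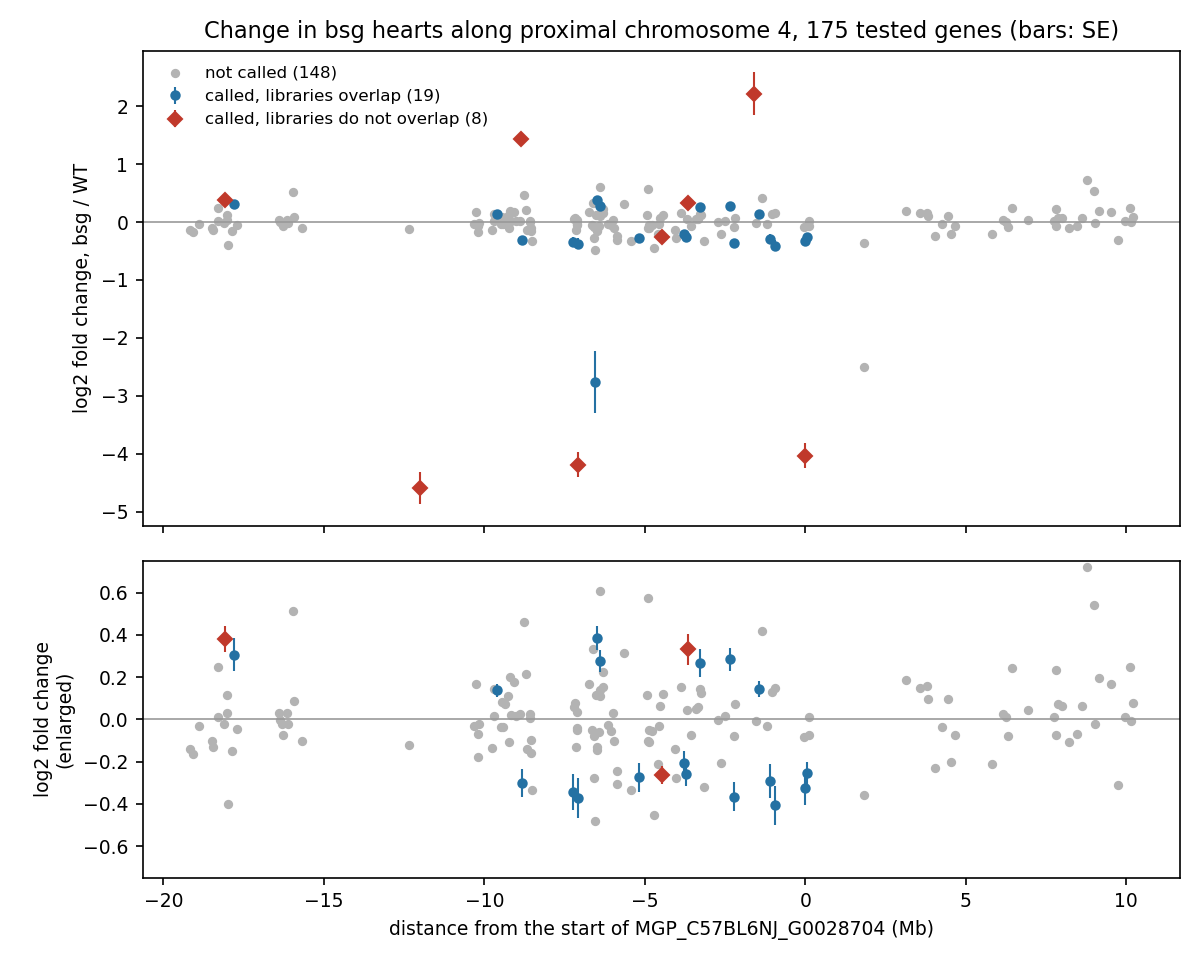
Log2 fold change of bsg over WT (vertical axes, bars for the SE of called genes) for the 175 tested genes by distance in Mb from the start of MGP_C57BL6NJ_G0028704 (horizontal axis), with small values enlarged in the lower panel. The 27 called genes lie left of or close to the zero point, and the 35 genes beyond 50 Mb, at the right, are all uncalled.

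The window's edges do not coincide with the called genes. Just inside the lower edge, the gene at 30.58 Mb had a log2 fold change of -0.14 (SE 0.04), and just outside it, at 27.18 Mb, the value was -0.15 (SE 0.11). Just inside the upper edge, the gene at 59.95 Mb stood at 0.08 (SE 0.17), and just outside, at 60.09 Mb, at 0.11 (SE 0.08). None of these 4 was called. The called genes were flanked by uncalled genes at 31.64 Mb, with a log2 fold change of -0.02, and at 49.85 Mb, with 0.01. The nearest called genes outside the window started at 22.94 Mb (log2 fold change -0.24) and 64.72 Mb (-0.27), and neither had separate libraries. On the remainder of chromosome 4, 36 of 771 tested genes (4.67%) were called. Some windows on other chromosomes had shares near that of this region. On chromosome 2 from 170 Mb to its end 16.3% were called, on chromosome 5 at 70 to 100 Mb 19.2%, and on chromosome 19 at 20 to 60 Mb 11.8%.

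Size set 6 of the called genes apart from the others. These 6 differed by at least 2-fold, beside 0.44% of all tested genes that were called with such a difference. The other 21 differed by 1.10-fold to 1.32-fold, 9 of them higher and 12 lower in bsg. No called gene lay between these sizes. Among the 6, the genes at 37.75, 42.66 and 43.18 Mb passed the count filter only through their WT libraries. Over all 175 tested genes of the region the median log2 fold change was -0.01, with 84 above 0 and 91 below, and over all 15013 genes it was 0.00. The median absolute log2 fold change was 0.13 in the region and 0.09 over all tested genes. Among the 115 genes of the region whose average level was 3 log2 CPM or more, it was 0.10, against 0.07 for all genes at that level.

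A gene was called separated when every bsg library lay above, or every one below, all WT libraries. This held for 8 of the 175 genes (4.57%), beside 0.779% of all tested genes. Of these 8, 4 had all bsg libraries higher, beside 0.426% of all genes, and 4 had all bsg libraries lower, beside 0.353%. All 8 were also called, and 5 of them were among the genes that differed by at least 2-fold. Because separation was measured on the libraries that chose the region, it too is a description. Among the 4 with all bsg libraries lower, the genes at 37.75 and 42.66 Mb passed the count filter only through their WT libraries. Elsewhere on chromosome 4, 4 of 771 genes (0.519%) were separated. In the windows named above on chromosomes 2, 5 and 19, 9.78%, 10.6% and 3.51% were separated.

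The gene MGP_C57BL6NJ_G0028704 lies on the minus strand at chr4:49747444-49762423 and has an exonic length of 2392 bp. In WT females it stood at 4.17, 9.02, 5.94 and 7.77 CPM, and in WT males at 13.1, 18.8 and 24.5 CPM. In bsg females it stood at 0.372, 0.543, 0.257, 0.582 and 0.386 CPM, and in bsg males at 1.29, 1.21, 0.764, 1.46 and 0.591 CPM. Every bsg heart was below every WT heart, and the highest bsg value was a male's while the lowest WT value was a female's. The log2 fold change was -4.03 (SE 0.21), or 16.4-fold lower in bsg. It was -3.94 (SE 0.31) in females and -4.12 (SE 0.29) in males. In all, 1300 fragments in 7 WT libraries and 119 in 10 bsg libraries lay behind these values, so the bsg levels are the less precise ones. Per kb of exon the mean was 4.97 CPM in WT and 0.312 CPM in bsg.

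The tested neighbours on either side of MGP_C57BL6NJ_G0028704 were also called lower in bsg, and these 3 formed the longest run of consecutive tested genes that were called. The gene at 49.73 Mb, on the plus strand, stood at 8.41 ± 0.746 CPM in WT (n = 7) and 6.76 ± 0.826 in bsg (n = 10), with overlapping libraries and a log2 fold change of -0.32 (SE 0.08). The gene at 49.80 Mb, on the minus strand, stood at 83.9 ± 9.45 CPM in WT and 70.7 ± 3.25 in bsg, also with overlapping libraries and a log2 fold change of -0.25 (SE 0.05). Both neighbours thus differed by a small fraction of the change seen in the gene between them.

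The other gene given by ID among those lower in bsg is MGP_C57BL6NJ_G0012935, a gene of 1 exon and 365 bp on the plus strand at chr4:48817838-48818202. It stood at 17.1, 10.4, 14 and 12.8 CPM in WT females and at 12.6, 12 and 14.4 CPM in WT males. The 10 bsg hearts ranged from 7.85 to 11.1 CPM, with a median of 10.1. WT female 2, which lay apart from most libraries on all genes, was the WT heart that fell among the bsg hearts. The log2 fold change was -0.41 (SE 0.09), and over the alternative settings it ranged from -0.51 to -0.34. Without WT male 3, or with libraries summed by the number in their titles, this gene was no longer called.

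Further genes at low level, at 37.75, 42.66 and 43.18 Mb, were nearly undetected in bsg hearts. With at most 4 fragments in any bsg library, they passed the count filter only through their WT libraries. A gene as low in all hearts as these were in bsg would not have been tested, so their falls are a description. The gene at 37.75 Mb, on the minus strand, stood at 4.54, 2.92, 2.58 and 3.17 CPM in WT females and at 2.43, 3.26 and 3.45 CPM in WT males. The 10 bsg hearts ranged from 0 to 0.257 CPM, with a median of 0.128. All bsg hearts were below all WT hearts. On the log2 scale the fold change was -4.59 (SE 0.28), or 24.1-fold lower, from 348 fragments over 7 WT libraries and 20 over 10 bsg libraries.

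The gene at 42.66 Mb, on the plus strand and with 592 bp of exon, stood at 2.27, 3.44, 3.23 and 2.85 CPM in WT females and at 3.10, 2.65 and 2.50 CPM in WT males. The bsg hearts ranged from 0.0637 to 0.248 CPM, with a median of 0.170. Again the genotypes did not overlap, and the log2 fold change was -4.19 (SE 0.21), or 18.2-fold lower, from 310 and 24 fragments.

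The gene at 43.18 Mb was lower still in level, at 0.543 ± 0.211 CPM in WT and 0.0735 ± 0.0822 in bsg. Its libraries overlapped, since the lowest WT heart stood at 0.202 CPM and the highest bsg heart at 0.217. The log2 fold change was -2.76 (SE 0.54), resting on 59 fragments in WT and 12 in bsg. This gene was fitted in 22 of 27 alternative settings and called in 20 of them.

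Among the genes higher in bsg, a large difference with little spread was that of MGP_C57BL6NJ_G0028573, on the minus strand at chr4:40904245-40911717 with an exonic length of 4701 bp. It stood at 21.9, 19.9, 19.6 and 20.2 CPM in WT females and at 23.7, 23.7 and 24.7 CPM in WT males. In bsg females it stood at 51.6, 50.2, 58.2, 66.7 and 53.9 CPM, and in bsg males at 54.8, 69.6, 62.4, 69.7 and 63.7 CPM. The gap between the highest WT heart and the lowest bsg heart was wider than the whole WT range. The log2 fold change was 1.44 (SE 0.06), or 2.71-fold higher, and it was 1.46 (SE 0.09) in females and 1.41 (SE 0.09) in males. Over the alternative settings it ranged from 1.40 to 1.46. The gene at 40.93 Mb on the same strand went the other way, from 23.6 ± 2.12 CPM in WT to 19.2 ± 1.89 in bsg, with overlapping libraries and a log2 fold change of -0.30 (SE 0.07).

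MGP_C57BL6NJ_G0028690, on the plus strand at chr4:48142176-48183404 with an exonic length of 5922 bp, had the largest log2 fold change among the called genes higher in bsg. It stood at 1.70, 4.09, 3.81 and 2.27 CPM in WT females and at 4.25, 3.26 and 3.03 CPM in WT males. In bsg females it stood at 12.9, 16.3, 6.75, 8.15 and 8.23 CPM, and in bsg males at 53.9, 18.5, 14.5, 10.2 and 10.2 CPM. All bsg hearts were above all WT hearts, and bsg male 1 stood far above the other bsg hearts. The log2 fold change was 2.22 (SE 0.37), or 4.66-fold higher, and without bsg male 1 it was 1.88. In females it was 1.82 (SE 0.49) and in males 2.62 (SE 0.54), or 1.93 in males without bsg male 1. With the males taken alone as a contrast, this gene was called under 17 of 27 alternative settings.

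The spread of MGP_C57BL6NJ_G0028690 among bsg hearts lay partly between and partly within sets of hearts that share a number in the sample titles. The labels do not state the meaning of this number, and in bsg each number was held by hearts of 1 sex. The 3 bsg females that share 1 such number stood at 6.75, 8.15 and 8.23 CPM, below the 7 other bsg hearts. The 3 bsg males that share another stood at 53.9, 18.5 and 14.5 CPM, and the 2 bsg females that share another at 12.9 and 16.3 CPM. Bsg male 4 and bsg male 5, each alone with its number, both stood at 10.2 CPM. No number was shared between WT and bsg hearts, so number and genotype cannot be told apart. The part of this number in the difference from WT was not tested.

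**Figure D2:**
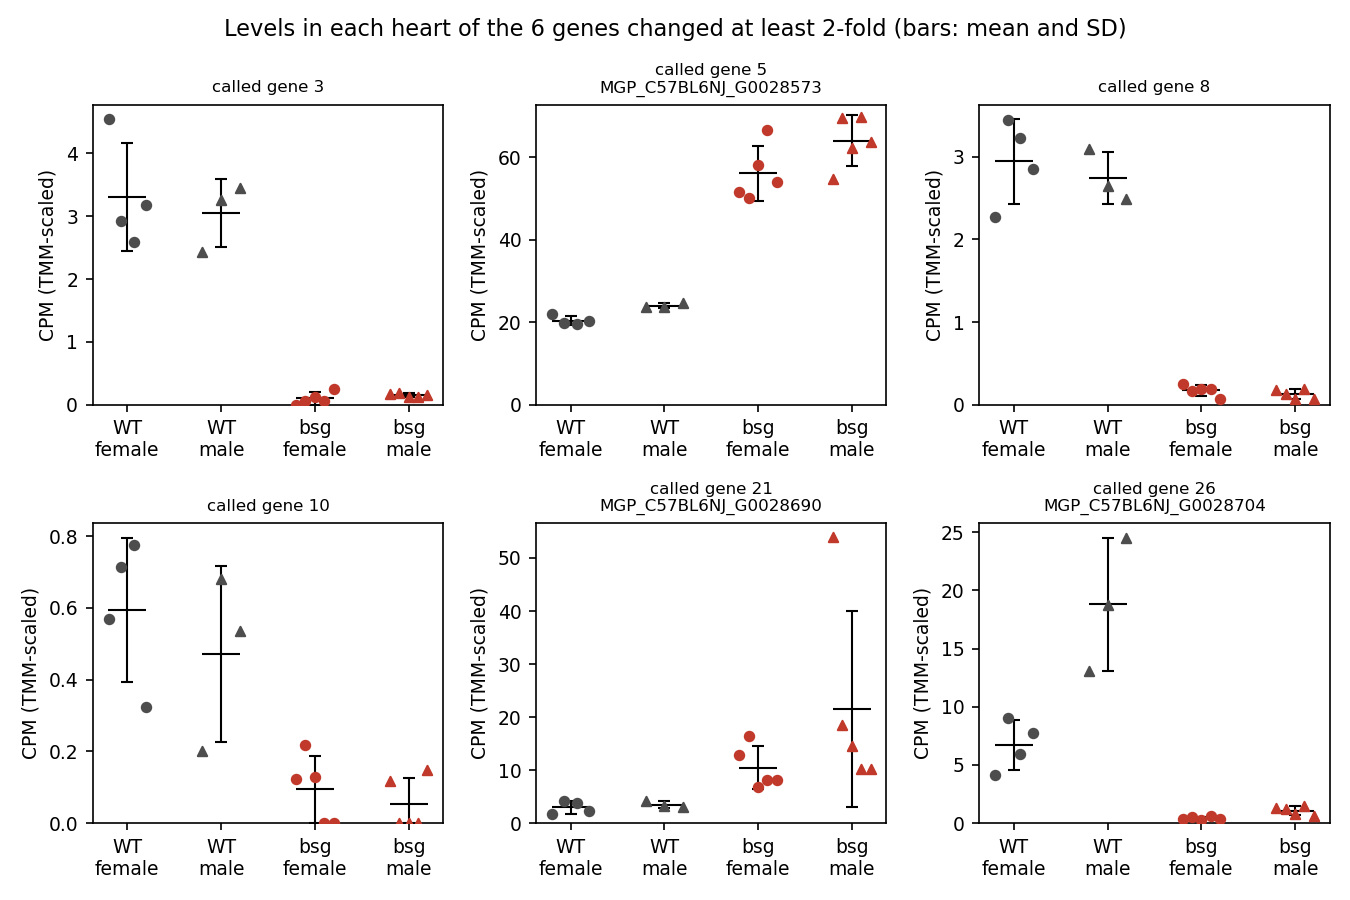
CPM of each heart (vertical axes, 1 point per heart, bars for mean and SD) by genotype and sex (horizontal axes) for the 6 called genes that differed by at least 2-fold, numbered in order of position, where 3, 8 and 10 are the genes at 37.75, 42.66 and 43.18 Mb. The genotypes overlap in gene 10 and in none of the other 5, and in MGP_C57BL6NJ_G0028690 bsg male 1 at 53.9 CPM lies above all other hearts.

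The 21 genes with small differences kept their side in most libraries. The gene at 31.67 Mb, the first called along the region, stood at 180 ± 15.1 CPM in WT, with 158 as its lowest and 195 as its highest library, and at 235 ± 19 CPM in bsg, with a median of 230 and a highest library of 269. The genotypes did not overlap, and the log2 fold change was 0.38 (SE 0.06). The gene at 31.96 Mb stood at 79.4 ± 4.49 CPM in WT and 98.1 ± 13.3 in bsg, with a log2 fold change of 0.31 (SE 0.08), but bsg hearts from 76.5 to 119 CPM overlapped the WT range.

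At 45.27 Mb the small fall was separated. The gene there stood at 102 ± 5.71 CPM in WT, from 93.0 to 109, and at 85.3 ± 5.17 in bsg, from 78.3 to 92.7, with a log2 fold change of -0.26 (SE 0.04). The gap between the genotypes was smaller than the SD of either. At 46.09 Mb the small rise was separated as well, from 4.60 to 6.00 CPM in WT and from 6.06 to 7.57 in bsg, with a log2 fold change of 0.33 (SE 0.08).

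Other small differences lay close together, some with the same sign and some with opposite signs. At 43.25 and 43.35 Mb genes were higher in bsg, at 33.9 ± 2.44 against 26.0 ± 2.64 CPM and at 82.5 ± 5.88 against 68.1 ± 5.49 CPM. At 42.52 and 42.68 Mb genes were lower, at 5.88 ± 0.905 against 7.35 ± 0.933 CPM and at 18.7 ± 2.02 against 24.2 ± 4.17 CPM. At 45.96 Mb, a gene with 133 CPM per kb in WT and 116 in bsg fell by 0.21 (SE 0.05) on the log2 scale. At 46.04 Mb, the gene on the opposite strand fell by 0.26 (SE 0.06) on that scale. Consecutive called genes at 47.41 Mb and 47.53 Mb differed in sign, with log2 fold changes of 0.28 (SE 0.06) and -0.37 (SE 0.07). Of the 26 pairs of consecutive called genes, 17 shared a direction, a count that was not tested against a random order of the signs.

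The remaining small differences included the smallest among the called genes, at 40.14 and 48.29 Mb. Higher in bsg were the genes at 40.14 Mb (log2 fold change 0.14, SE 0.03), 46.46 Mb (0.27, SE 0.07) and 48.29 Mb (0.14, SE 0.04). Lower were the genes at 44.58 Mb (-0.27, SE 0.07) and 48.66 Mb (-0.29, SE 0.08). Their libraries overlapped between the genotypes.

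Counted by heart, the called genes divided the libraries by genotype. A heart was placed on the bsg side of a gene when its level lay past the midpoint of the genotype means toward bsg. WT hearts were on the bsg side in 1 to 7 of the 27 genes, and bsg hearts in 22 to 27. For the 21 small differences alone the counts were 1 to 6 in WT and 16 to 21 in bsg. All 10 bsg hearts lay beyond the WT mean in the direction of the call for 24 genes, and 9 of 10 did so for the genes at 31.96, 40.93 and 48.66 Mb. These counts follow from how the genes were called and are given as a description.

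**Figure D3:**
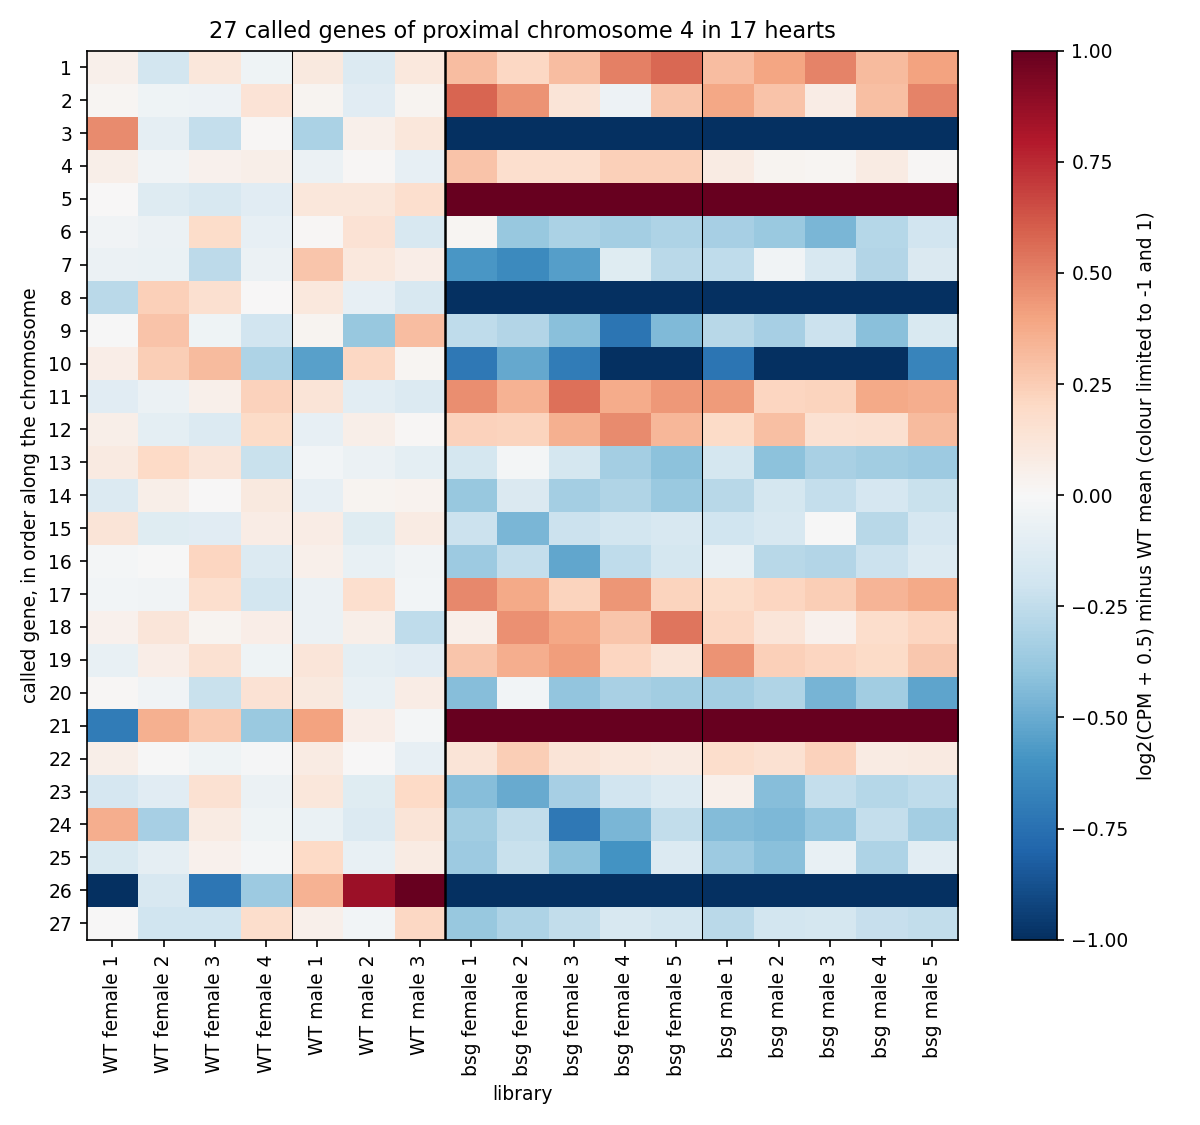
Level of each of the 27 called genes, in order of position (vertical axis), in each of the 17 hearts (horizontal axis), as log2(CPM + 0.5) minus the WT mean (colour, limited at -1 and 1). In the 10 bsg hearts 22 to 27 genes lie on the bsg side, and gene 26, MGP_C57BL6NJ_G0028704, also varies widely among WT hearts, with males above females.

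By the features that the table gives, the called genes lay on the plus strand in 13 cases and on the minus strand in 14, with 8 lower genes on each strand. Their median exonic length was 3450 bp, and that of the other tested genes of the region was 3432 bp. Their median average level was 4.40 log2 CPM, against 4.47 for the others. The annotation listed a median of 18 exon entries, summed over transcripts, for the called genes and 25 for the others, a difference that was not tested. Large changes were found both in a gene of 592 bp, at 42.66 Mb, and in one of 5922 bp, at 48.14 Mb.

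Large log2 values among uncalled genes came from low counts. The gene at 51.57 Mb, with 375 bp of exon, had a log2 fold change of -2.50 (SE 1.19), and this rested on the 3 libraries that lay apart. Its level was 6.43 CPM in WT female 2, 1.56 CPM in WT male 2 and 2.17 CPM in bsg female 2, while the other WT hearts stood at 0.0594 to 0.189 CPM and the other bsg hearts at 0 to 0.129. Without these 3 libraries the gene had 7 fragments in each genotype and did not pass the filter, and fitted without a filter its log2 fold change was -0.65 (SE 0.86). Beyond 50 Mb the largest absolute log2 fold change among genes whose average level was 1 log2 CPM or more was 0.25.

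Within each sex, fewer genes passed than with the sexes averaged. In females 10 genes of the region were called between bsg and WT, beside 1.8% of all tested genes, and in males 5, beside 0.546%. All 10 and all 5 were among the 27. Called in each sex were the genes at 37.75, 40.90, 42.66 and 49.75 Mb. All 27 genes had the same sign in females and in males, which was so for 122 of 175 tested genes of the region (69.7%) and for 60.1% of all tested genes. Because genes were called on the difference averaged over the sexes, a shared sign was largely set by the call. The share among all called genes was not computed.

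Whether the genotype difference itself differed between the sexes was tested with the interaction term. This term is built from the differences within each sex, which the choice of the region used, so its values are a description. In edgeR 0 of 175 genes passed, beside 0% of all tested genes, and DESeq2 and limma-voom also called 0. At an unadjusted p under 0.05 there were 8 of 175 genes in the region and 776 of 15013 over all. The smallest adjusted p in the region was 0.888 in edgeR's quasi-likelihood test. The median SE of the interaction was 0.14 on the log2 scale, while the small changes between bsg and WT measured 0.14 to 0.41 on that scale in absolute value.

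**Figure D4:**
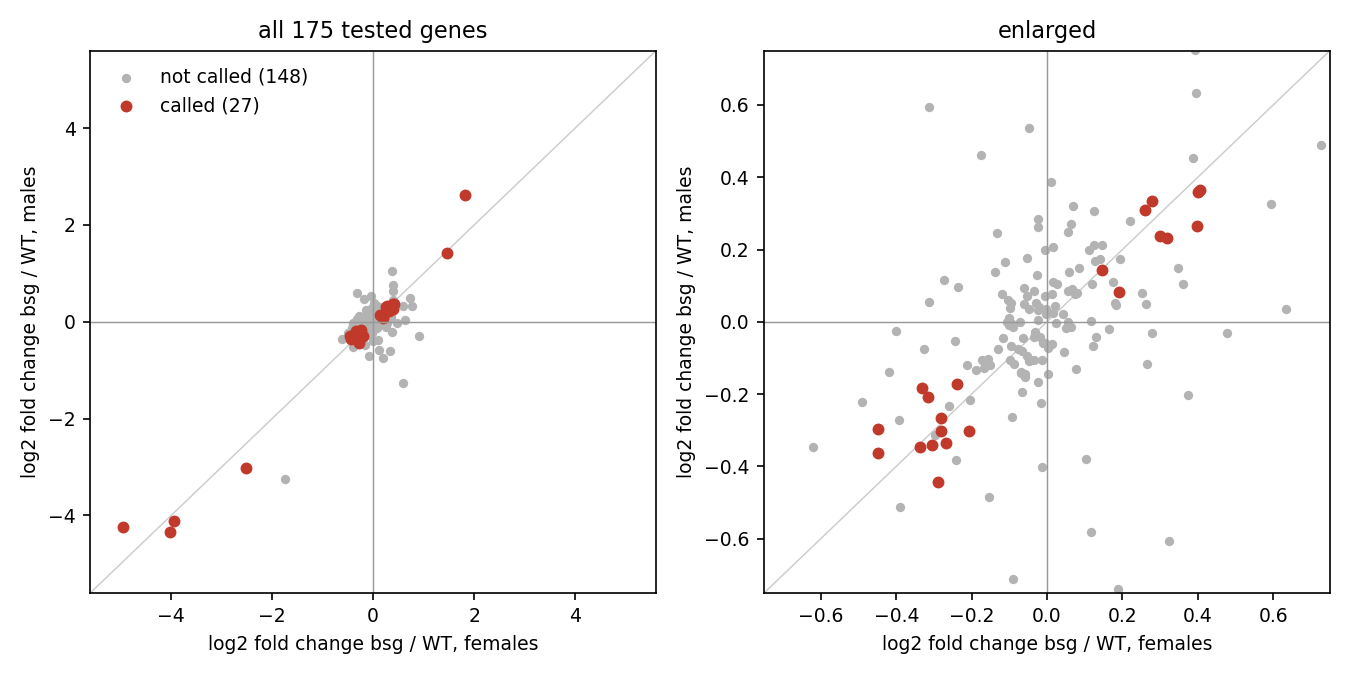
Log2 fold change of bsg over WT in males (vertical axes) against that in females (horizontal axes) for the 175 tested genes, with called genes in red, the diagonal marking equal values and the right panel enlarged. All 27 called genes have the same sign in each sex, which the call on the average over the sexes favours. In the test of the interaction 0 genes passed.

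Males against females is a comparison that the choice of the region did not use, tested with the difference averaged over genotypes. In the region 1 of 175 genes (0.571%) passed in edgeR, beside 0.32% of all tested genes, and it was MGP_C57BL6NJ_G0028704. This gene was higher in males by 1.39 on the log2 scale (SE 0.22), or 2.63-fold, with an adjusted p of 0.00589 in edgeR's quasi-likelihood test over all genes. In WT hearts the mean was 6.72 ± 2.13 CPM in 4 females and 18.8 ± 5.73 CPM in 3 males. In bsg hearts it was 0.428 ± 0.133 CPM in 5 females and 1.06 ± 0.370 CPM in 5 males. Within each genotype every male stood above every female. In bsg the gap was narrow, between bsg male 5 at 0.591 CPM, from 8 fragments, and bsg female 4 at 0.582 CPM, from 9 fragments.

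Taken within 1 genotype, the sex difference of MGP_C57BL6NJ_G0028704 did not pass. It was 1.48 (SE 0.27) in WT, with an adjusted p of 0.0637, and 1.30 (SE 0.34) in bsg, with an adjusted p of 0.175, in edgeR's quasi-likelihood test. The difference between these values, the interaction, was -0.18 (SE 0.48, adjusted p = 0.972 in edgeR). Without WT female 2 and bsg female 2 the sex difference averaged over genotypes was 1.54 on the log2 scale (adjusted p = 0.00594 in edgeR), and without WT male 2 as well it was 1.53 (adjusted p = 0.0179). The call was lost in limma-voom (adjusted p = 0.0817) and when libraries were summed by title number (adjusted p = 0.228). The gene next in order, at 57.97 Mb, was higher in males by 0.31 on the log2 scale (SE 0.07) with an adjusted p of 0.0863 in edgeR, and did not pass.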

How the data were processed

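The authors deposited raw fragment counts per gene and the exonic length of each gene, with no normalization. Per the file headers, featureCounts 1.6.2 counted a fragment when both its ends aligned with a mapping quality of at least 10, at strand setting 2, against Ensembl release 109 of C57BL_6NJ_v1. The build GRCm39 and the tools featureCounts, Subread and DESeq2 stand in the submitters' processing notes, and the aligner is not given in the sources used here. Coordinates are those of the file.

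Because strand was used, genes that overlap on opposite strands did not share fragments. The mapping quality limit removes fragments that fit several places, which lowers counts of genes with near copies. Samples were grouped by genotype and sex in the labels, and replicates are numbered in accession order, as names only. Between 29 pairs of libraries of 1 group, the chi-square per gene was at least 5.29, so no library was treated as a duplicate.

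Genes were filtered with edgeR's filterByExpr (minimum count 10, minimum total 15), scaled by TMM and fitted in edgeR 4.0.16 under R 4.3.3 by quasi-likelihood, with 1 mean per group over 17 libraries. P-values were two-sided and adjusted by Benjamini-Hochberg over all 15013 tested genes. The SE was computed by dividing the size of the log2 fold change by the square root of F and can be too small near 0 counts. The scripts were tested on simulated data. As alternatives, scaling was by RLE or upper quartile, filtering was dropped or set to CPM above 1 in at least 3 libraries, each library was left out, WT and bsg female 2 were left out, libraries were summed by title number, and genotype alone or only the compared groups were fitted. DESeq2 1.42.0 and limma-voom 3.58.1 were other tools. Leaving out WT male 2 as well, and most settings for the comparisons of sex and within each sex, were chosen after seeing the data.

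The region and its genes were chosen with earlier results of these data known. Genes given by ID were the one named in the choice of the region, then the called gene with the next largest fall and those with the 2 largest rises, at an average level of 1 log2 CPM or more.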

Additional observations from a re-analysis of the deposited data

Results flagged for a closer look

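Within the 3 groups of 4 or 5 hearts, the 27 called genes, the summed level of the region and the number of genes with a count were searched for a heart whose gap to the nearest other exceeded the usual limit for that group size. This held in 10 of 87 sets, where chance gives about 1 in 20. At 48.14 Mb bsg male 1 stood at 53.9 CPM, with the other bsg males at 10.2 to 18.5, and at 47.41 Mb the same heart stood at 52.4 CPM against 43.8 to 46.2. Bsg female 2 stood at 383 CPM at 45.96 Mb (others 451 to 469), at 14 CPM at 47.53 Mb (others 10.5 to 11.2) and at 56.9 CPM at 48.29 Mb (others 50.9 to 52.4). It also had 20589 genes with a count, against 18767 to 19229 in the other bsg females. WT female 2 had 20118 genes with a count, against 19055 to 19117 in the other WT females. WT female 3 stood at 26.9 CPM at 40.93 Mb (others 22.3 to 23) and at 6.00 CPM at 42.52 Mb (others 6.95 to 7.01). Bsg female 1 stood at 23.9 CPM at 40.93 Mb (others 18 to 19).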

How the results depend on the processing

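Of the 27 called genes, 8 were called under all 27 alternatives (at 31.67, 37.75, 40.90, 42.66, 43.25, 47.53, 48.14 and 49.75 Mb), and all 27 kept their sign wherever they were fitted. Leaving out single libraries gave 13 to 27 called genes, 6 to 12 higher and 7 to 17 lower, beside 2.06% to 4.61% of all genes. Without WT male 3 the count was 13 (6 higher, 7 lower), beside 2.06% of all genes. Summing libraries by title number gave 9 (5 higher, 4 lower), beside 1.53%. In that setting 4 were called in females, beside 0.382%, and 0 between males and females, beside 0.0572%. In females, where 10 genes were called, single libraries left out gave 6 to 14, beside 0.841% to 2.22% of all genes. The low of 6 came without WT female 1. The 2 groups fitted alone gave 6, beside 0.758%, and DESeq2 gave 16, beside 3.61% of all genes against 1.8%. In males, where 5 were called, DESeq2 gave 12, beside 1.55% against 0.546%. Between males and females, where 1 was called, beside 0.32% of all genes, single libraries left out gave 1 to 2, beside 0.149% to 0.507%. The 3 libraries that lie apart left out gave 2, beside 0.22%. DESeq2 gave 3, beside 0.986%, and limma-voom 0, beside 0.306%. The interaction gave 0 under all alternatives, and separate libraries 7 to 11 genes, beside 0.759% to 1.61% of all genes. MGP_C57BL6NJ_G0012935 was not called without WT male 3 or with summed libraries (log2 fold change -0.36 and -0.40). The gene at 43.18 Mb was not called in DESeq2, which gave it no adjusted p, or with summed libraries. The log2 sex difference of MGP_C57BL6NJ_G0028704 ranged from 1.28 to 1.54. Where fewer samples entered, fewer genes can pass; for the other changes the cause was not tested. No paired analysis was possible because the labels give no replicate numbers shared between the genotypes. Genes with few fragments in bsg libraries are limited by depth, and their bsg levels are imprecise.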
